A study of Mus musculus with 12 samples.

Results

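The 34 genes described here are ATF4 and genes known as its targets or as suppliers of amino acids. They were chosen by symbol, and all 34 were found among the 24619 genes of the deposited count table. Of these, 12 are stress regulators, 9 are enzymes of amino acid synthesis, 3 are mitochondrial one-carbon enzymes, 7 are amino acid transporters, and 3 encode a surface receptor and secreted factors. The filter on low counts kept 33 of the 34 genes among the 14400 tested. Stc2, which encodes a secreted glycoprotein hormone, had 1 count in an OE_CM library, 1 in a VEC_CM library and 0 in the other 10 libraries, and was not tested.

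ATF4 is a transcription factor of the basic leucine zipper family. When cells lack amino acids or carry unfolded proteins, kinases phosphorylate the initiation factor eIF2alpha, general translation slows, and the ATF4 messenger RNA is translated more. ATF4 then raises transcription of genes for amino acid uptake, amino acid synthesis and mitochondrial folate metabolism, and of factors that feed back on the response. In fibroblasts stimulated with TGF-beta, this programme is known to supply serine, glycine and proline. Of these, collagen contains glycine and proline in large amounts. Since much of ATF4's control is on its translation, its messenger RNA level does not measure its activity.

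Messenger RNA was sequenced from primary mouse cardiac fibroblasts. They were grown with 10% serum, starved for 12 h and given conditioned medium of lentivirus-infected adipocytes for 24 h, and libraries were made from 1.3 µg of total RNA. The study's title ties a microRNA, miR-548ay-3p, and PPARγ signalling in adipocytes to cardiac fibrosis. OE_CM fibroblasts received medium of adipocytes overexpressing the human microRNA. TGF_KD_CM fibroblasts were exposed to TGF-beta1 and to medium of adipocytes in which the microRNA was inhibited, and TGF_VEC_CM fibroblasts to TGF-beta1 and medium of vector-infected adipocytes. VEC_CM fibroblasts received medium of vector-infected adipocytes with no TGF-beta1 named. Each group had 3 libraries. All 4 groups thus shared starvation and the medium of virus-infected adipocytes. Groups follow the titles, since for replicates 2 and 3 of OE_CM and of TGF_KD_CM the treatment field gives the microRNA as miR-549ay or miR-550ay. It was not settled whether TGF-beta1 was part of the medium or was added separately. The labels also put the TGF-beta1 groups in another part of the study, so that TGF-beta1 and that part cannot be told apart. Nothing says that the libraries of a group are separate cultures, so p-values measure the spread between these libraries only, which may be technical. The adipocytes were not analysed here.

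Library totals ran from 33379207 to 37226153 counts, both in OE_CM, and a floor of 3 counts equals no more than 0.0899 CPM of the raw library total. CPM is a gene's count divided by the size of its library, rescaled to a fixed depth. Of the 8 fibroblast markers chosen, Col1a1, Col1a2, Pdgfra and Pdgfrb were present, while Dcn, Lum and Thy1 were close to 0. Tcf21 was not in the deposited count table. CPM summed over the 7 fibroblast markers in the table ran from 6252 to 6510 in OE_CM, 6820 to 7124 in TGF_KD_CM, 6303 to 6436 in TGF_VEC_CM and 5905 to 6068 in VEC_CM. The sum hides markers that moved apart. In OE_CM against VEC_CM Pdgfra fell by 1.01 on the log2 scale, while Pdgfrb rose by 0.44 and Col1a1 by 0.38. Col1a2 (0.02) and Thy1 (0.54, SE 0.53) did not pass there. In TGF_VEC_CM against VEC_CM Col1a1 rose by 0.46, while Pdgfrb fell by 0.84 and Pdgfra by 0.20. The sum over 8 adipocyte markers, mostly Fabp4 and Pparg, ran from 221 to 230 in OE_CM, 253 to 270 in TGF_KD_CM, 275 to 289 in TGF_VEC_CM and 386 to 403 in VEC_CM, with Lep at 0 in all groups except TGF_KD_CM. In OE_CM against VEC_CM Fabp4 fell by 1.60 on the log2 scale, while Cidec rose by 0.74. Pparg (0.01), Adipoq, Plin1 and Cfd did not pass in that comparison. The 8 leukocyte markers summed to 23.1 to 36.4 CPM in OE_CM, 31.5 to 33.4 in TGF_KD_CM, 34.4 to 37.7 in TGF_VEC_CM and 45.0 to 46.4 in VEC_CM, with Cd3e at 0 in all groups except TGF_VEC_CM. The 6 mural markers summed to 897 to 903 CPM in OE_CM, 636 to 649 in TGF_KD_CM, 820 to 844 in TGF_VEC_CM and 598 to 617 in VEC_CM. Only 3 of them were tested, and they did not move together in OE_CM against VEC_CM. On the log2 scale Cspg4 rose by 0.63 and Des fell by 0.77, while Rgs5 did not pass (-0.41, SE 0.64). The 6 cardiomyocyte markers found, mostly Tnnt2, summed to 163 to 167 CPM in OE_CM, 97.7 to 104 in TGF_KD_CM, 105 to 116 in TGF_VEC_CM and 70.5 to 76.8 in VEC_CM. The 6 endothelial markers summed to at most 1.80 CPM in any library. These sums moved with the groups compared below, and their part in the results was not tested. In bulk RNA, fewer cells of a kind and less RNA per cell cannot be told apart. OE_CM replicate 1 stood apart from the other OE_CM libraries on the fourth principal component, which held 3.81% of the variance.

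ATF4 binds composite sites known as amino acid response elements, and their core letters were looked for in promoters, because the results concern genes named as its targets. RefSeq promoters of GRCm38.p6, from 250 bases before to 50 bases after an annotated start, were found for 30 of the 34 genes. The letters TGATGNAA, or TTNCATCA when the element lies on the other strand, occurred in 10 of the 30 genes (33.3%) and in 1219 of all 27025 genes with a promoter (4.51%). The stricter TGATGCAA, or TTGCATCA, which is contained in the first motif, occurred in 7 of the 30 genes (23.3%) and in 279 of all 27025 genes (1.03%). The windows of 9 of these genes are shown on the strand of the gene, 5′ to 3′, with the matching letters in capitals; in the tenth, Trib3, the match lay 15 bases after the start. They are shown because they span genes that moved in different directions in the comparisons below.
Chac1 (chr2:119351009-119351096, plus strand): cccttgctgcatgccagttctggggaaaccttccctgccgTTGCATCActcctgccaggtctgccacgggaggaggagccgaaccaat
Nupr1 (chr7:126625533-126625620, minus strand): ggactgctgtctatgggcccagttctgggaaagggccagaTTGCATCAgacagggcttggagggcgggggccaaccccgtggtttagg
Asns (chr6:7693185-7693272, minus strand): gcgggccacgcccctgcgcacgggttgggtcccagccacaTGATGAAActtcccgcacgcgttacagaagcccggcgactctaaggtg
Pycr1 (chr11:120643804-120643891, minus strand): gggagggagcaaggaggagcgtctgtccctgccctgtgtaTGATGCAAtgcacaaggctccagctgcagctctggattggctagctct
Pck2 (chr14:55540123-55540210, plus strand): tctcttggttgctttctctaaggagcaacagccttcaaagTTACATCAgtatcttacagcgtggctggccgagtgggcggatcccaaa
Slc7a11 (chr3:50443632-50443719, minus strand): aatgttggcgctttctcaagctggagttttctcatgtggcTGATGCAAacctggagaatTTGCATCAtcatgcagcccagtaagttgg
Slc1a4 (chr11:20332684-20332757, minus strand): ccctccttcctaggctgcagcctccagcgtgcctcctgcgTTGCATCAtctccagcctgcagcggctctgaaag
Vldlr (chr19:27216780-27216867, plus strand): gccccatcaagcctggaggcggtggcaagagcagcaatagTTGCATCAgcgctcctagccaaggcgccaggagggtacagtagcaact
Fgf21 (chr7:45615582-45615669, minus strand): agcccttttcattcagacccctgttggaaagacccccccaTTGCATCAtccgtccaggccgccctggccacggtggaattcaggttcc
Slc7a11 held a copy on each strand, 66 and 47 bases before an annotated start. In Asns the match lay 23 bases before the start, in Pycr1 and in Pck2 103 bases, in Nupr1 110 bases and in Fgf21 139 bases. The matches in Chac1 and Vldlr lay farthest from a start, at 193 and 200 bases. In Slc1a4 the letters ran across the start itself. A match of letters is a description and not a binding site.

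**Figure D1:**
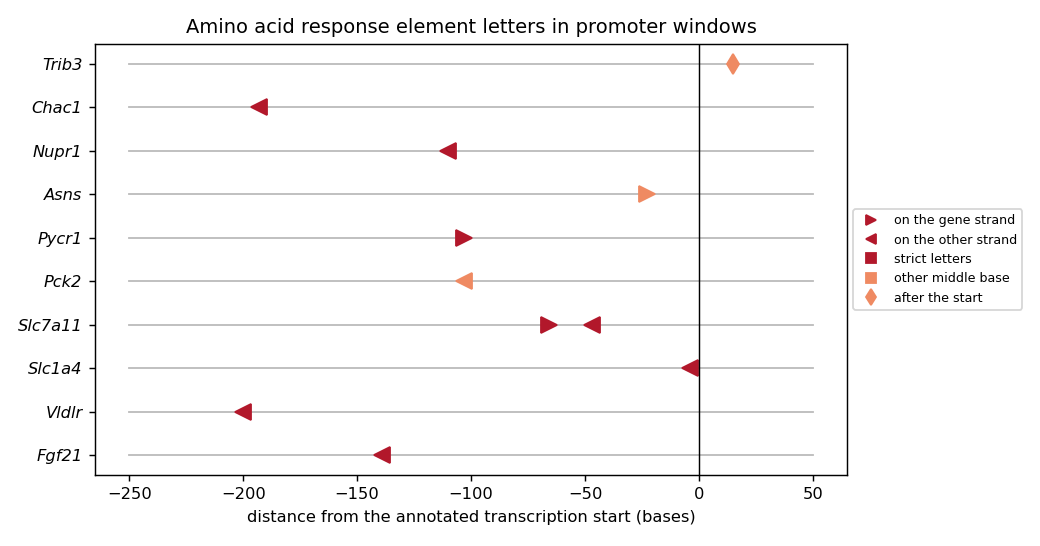
Position of the element letters in the promoters of the 10 genes that hold them, in bases from the annotated start at 0; each line is a window from 250 bases before to 50 bases after the start. Dark markers are the stricter letters, light ones another middle base, and the direction of the triangle is the strand; Slc7a11 alone among the 10 holds 2 copies, and Trib3 has its match after the start.

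Levels were first compared between genes on the deposited FPKM scale, which divides by gene length. Atf4 itself was the most abundant of the 34 messenger RNAs in OE_CM, with a mean of 352 FPKM, against 265 FPKM in VEC_CM, where its level was also the highest of the 34. Nupr1, which encodes a small stress-induced chromatin protein, averaged 307 FPKM in TGF_KD_CM and 282 FPKM in TGF_VEC_CM. In each of these 2 groups its mean was above that of Atf4, which was 278 FPKM in TGF_KD_CM and 242 FPKM in TGF_VEC_CM. Psat1 and Phgdh, enzymes of the serine pathway, and Shmt2, the mitochondrial enzyme that turns serine into glycine, lay between 177 and 253 FPKM in every group. At the other end, the cystine transporter gene Slc7a11 averaged 1.90 FPKM in OE_CM, 2.15 in TGF_KD_CM, 1.52 in TGF_VEC_CM and 1.42 in VEC_CM. Fgf21, a stress-induced hormone of the fibroblast growth factor family, was below 2 FPKM on average in every group.

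**Figure D2:**
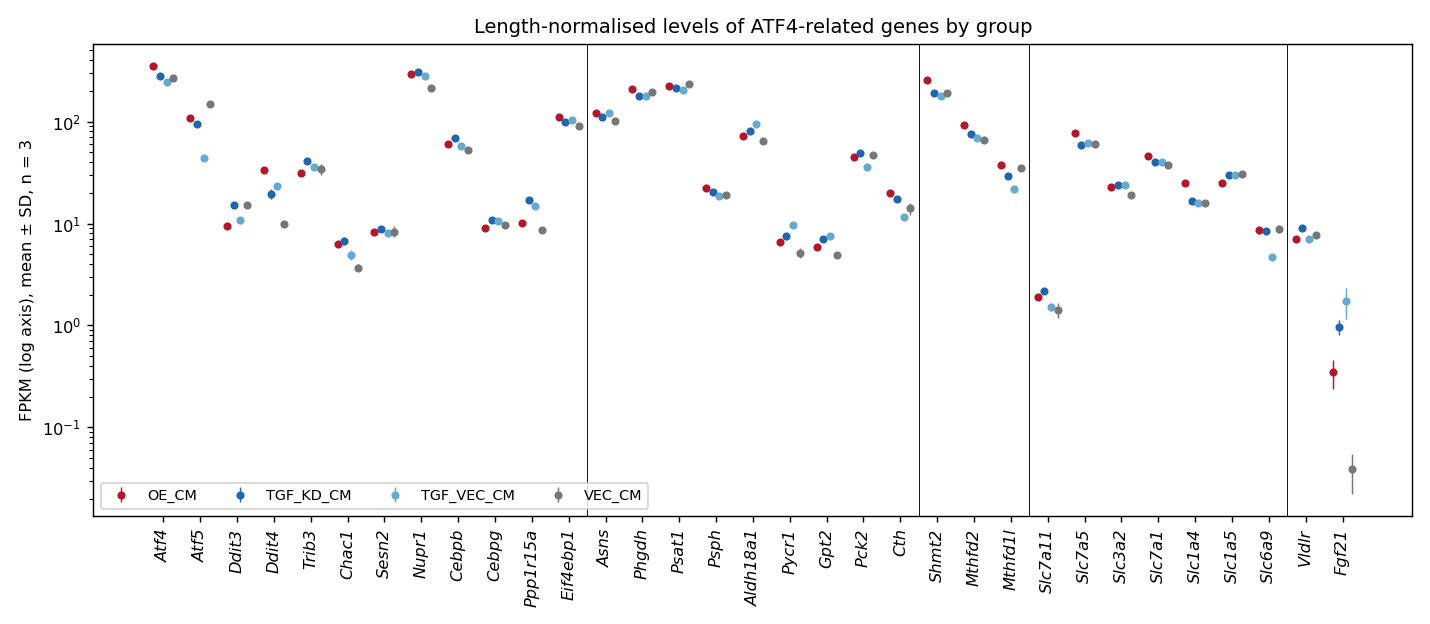
FPKM on a log axis for 33 genes in the 4 groups; points are means and bars SD over 3 libraries, and vertical lines separate stress regulators, synthesis enzymes, one-carbon enzymes, transporters, and Vldlr with Fgf21. Atf4 and Nupr1 are among the highest, and Slc7a11 is the lowest transporter at 1.42 to 2.15 FPKM. Fgf21 is the lowest gene drawn in every group except TGF_VEC_CM, where its mean is 1.74 FPKM and that of Slc7a11 is 1.52.

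Medium of adipocytes overexpressing the microRNA went with higher messenger RNA of most genes of the set. In OE_CM against VEC_CM, 27 of the 33 genes tested passed the threshold (adjusted p under 0.05 in edgeR's quasi-likelihood test with Benjamini-Hochberg adjustment over all 14400 genes), while 54% of all genes tested passed. Of the 27, 23 were higher and 4 lower, against 28.4% of all genes higher and 25.7% lower. Among all genes, 4083 were higher and 3695 lower; with upper quartile scaling this split was 2798 and 5059, while the set kept 23 higher and had 7 lower genes. The median log2 fold change was 0.34 over the 33 genes and -0.01 over all genes tested. Changes were small: 5 of the 33 genes passed with at least a 1.5-fold difference, and 14.4% of all genes tested did. Without OE_CM replicate 1, 23 genes were higher and 3 lower.

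Atf4 (chr15:80255184-80257545, GRCm38.p6) had 632, 651 and 633 CPM in OE_CM, against 465, 456 and 451 CPM in VEC_CM. The groups did not overlap, and Atf4 rose by 0.48 ± 0.03 on the log2 scale (SE; adjusted p = 4.24e-26, edgeR). Among the 12 stress regulators, 7 were higher, 2 were lower and 3 did not pass, with a median log2 fold change of 0.30. The largest difference of a well-counted gene was in Ddit4 (chr10:59949675-59951770), which encodes an inhibitor of the growth kinase complex mTORC1. Ddit4 had 58.8, 60.4 and 59.0 CPM in OE_CM, against 15.2, 17.5 and 16.9 CPM in VEC_CM. Every OE_CM library was far above every VEC_CM library, a 3.59-fold difference (log2 fold change 1.84 ± 0.06, adjusted p = 1.03e-33 in edgeR).

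Chac1 (chr2:119351242-119354326), which encodes an enzyme that degrades glutathione, had 10.5, 9.75 and 10.6 CPM in OE_CM and 6.24, 5.38 and 5.72 CPM in VEC_CM. The groups did not overlap and the rise was 1.78-fold. Nupr1 (log2 fold change 0.54), Eif4ebp1 (0.37), Ppp1r15a (0.32) and Cebpb (0.29) also rose. Eif4ebp1 encodes a repressor of cap-dependent translation, Ppp1r15a the stress-induced phosphatase subunit that removes the phosphate from eIF2alpha, and Cebpb a basic leucine zipper factor. The pseudokinase gene Trib3, Sesn2, which encodes a leucine sensor, and the dimer partner Cebpg did not pass, with log2 fold changes of -0.05, 0.08 and -0.01 and SEs of 0.05, 0.07 and 0.05.

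The genes of 2 other transcription factors of the stress response fell. Ddit3 (chr10:127290793-127296291), which encodes CHOP, a factor linked to cell death under lasting stress, had 24.9, 27.1 and 23.7 CPM in OE_CM, against 38.6, 36.8 and 39.2 CPM in VEC_CM. All OE_CM libraries lay below all VEC_CM libraries, a 1.51-fold fall (log2 fold change -0.60 ± 0.06, adjusted p = 7.26e-14 in edgeR). Atf5 (chr7:44812256-44816658), a relative of Atf4, had 197, 197 and 201 CPM in OE_CM, against 251, 248 and 265 CPM in VEC_CM. It fell by 0.36 ± 0.03 on the log2 scale with no overlap. The strand setting of the counting is not given in the sources used here, so reads of overlapping genes cannot be told apart. Ddit3 overlaps Mars1 (log2 fold change 0.43) and Mbd6 (-0.35), and Atf5 overlaps Nup62 (0.18).

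All but 2 of the 9 synthesis enzymes rose, with a median log2 fold change of 0.30. Asns, asparagine synthetase, averaged 433 ± 5.45 CPM in OE_CM and 343 ± 4.64 CPM in VEC_CM (SD, n = 3 each), a log2 fold change of 0.34. In the serine pathway, Phgdh (0.17) and Psph (0.30) rose, while Psat1 averaged 592 CPM in OE_CM and 582 CPM in VEC_CM and did not pass. Psph overlaps Cct6a, whose log2 fold change was 0.47, and Phgdh has a pseudogene copy. In the proline pathway, Aldh18a1 (0.25) and Pycr1 (0.45) rose. The rise of Gpt2, mitochondrial alanine aminotransferase, was 0.34 on the same scale. Cth (chr3:157894248-157925081), which makes cysteine from cystathionine, had 36.0, 37.5 and 40.8 CPM in OE_CM, against 29.2, 22.2 and 25.3 CPM in VEC_CM, with no overlap and a 1.49-fold difference. Pck2, the mitochondrial phosphoenolpyruvate carboxykinase, averaged 159 CPM in OE_CM and 159 CPM in VEC_CM and did not pass. With upper quartile scaling Psat1 (-0.06) and Pck2 (-0.09) passed as lower.

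The 3 mitochondrial one-carbon enzymes, which pass carbon units from serine to folate and release formate, rose together. Shmt2 averaged 614 ± 11.1 CPM in OE_CM and 441 ± 14.0 CPM in VEC_CM. Mthfd2 averaged 228 ± 4.77 CPM in OE_CM and 156 ± 5.63 CPM in VEC_CM (SD, n = 3 each). On the log2 scale Mthfd2 rose by 0.55 and Shmt2 by 0.48, and Mthfd1l, with 178 ± 4.73 CPM in OE_CM and 157 ± 4.84 CPM in VEC_CM, by 0.18.

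Among the 7 transporters, 5 rose, 1 fell and 1 did not pass, with a median log2 fold change of 0.38. Slc1a4 (chr11:20302180-20332713), a carrier of alanine, serine and cysteine, had 108, 106 and 97.8 CPM in OE_CM, against 65.0, 59.5 and 60.6 CPM in VEC_CM. The lowest OE_CM library was well above the highest VEC_CM library, and the difference was 1.68-fold (log2 fold change 0.75 ± 0.04, adjusted p = 1.28e-25 in edgeR). Slc7a5 and Slc3a2, which encode the chains of the large neutral amino acid transporter, rose by 0.46 and 0.34 on the log2 scale. The cationic amino acid carrier gene Slc7a1 rose by 0.38, and Slc7a11 rose by 0.50. Slc1a5, a glutamine carrier gene, fell by 0.20. The glycine transporter gene Slc6a9 had 32.5, 35.2 and 37.8 CPM in OE_CM, against 37.8, 32.2 and 34.2 CPM in VEC_CM, which overlapped (log2 fold change 0.02 ± 0.06). Vldlr, a lipoprotein receptor gene, averaged 93.1 CPM in OE_CM and 98.7 CPM in VEC_CM. Its call as lower was marginal (log2 fold change -0.08, adjusted p = 0.0497 in edgeR) and was lost with DESeq2 (adjusted p = 0.0538) and without any of OE_CM replicates 1, 2 and 3 or VEC_CM replicates 1 and 3 (adjusted p from 0.055 to 0.329).

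Fgf21 (chr7:45613890-45615490) had 14, 14 and 7 counts in OE_CM libraries, against 1, 2 and 1 in VEC_CM libraries. The VEC_CM libraries were all under 3 counts and every OE_CM library was above them. The summed counts, 35 in OE_CM and 4 in VEC_CM, gave a ratio of 9.54 after scaling, with an exact 95% interval of 3.41 to 36.9 that covers counting error only. Fgf21 passed the filter through the groups where it is higher.

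**Figure D3:**
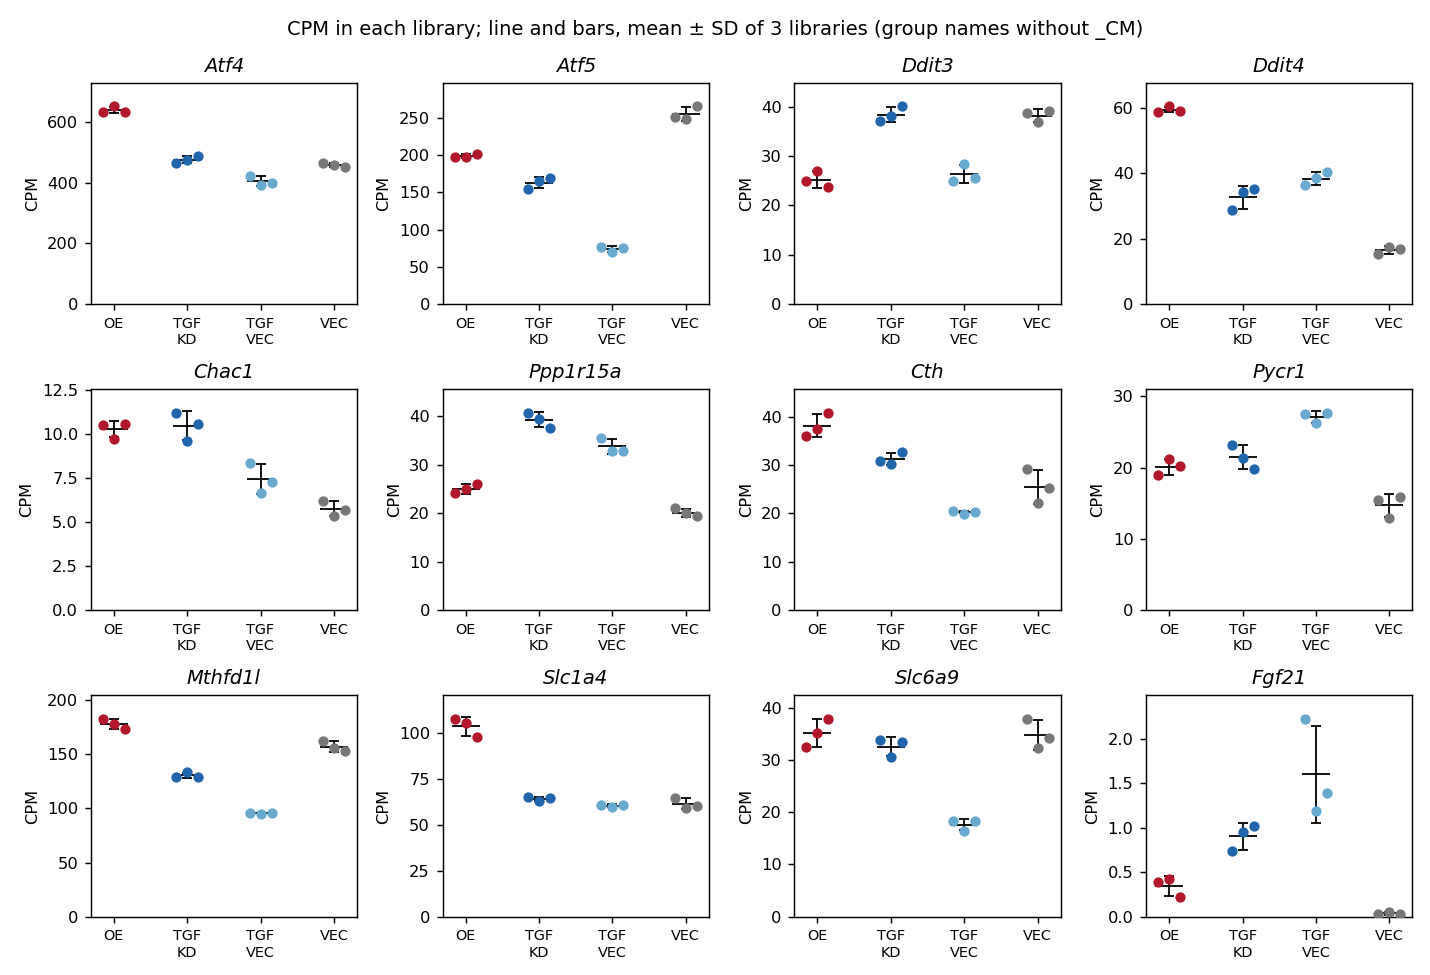
CPM in each library for Atf4 and the 11 genes that passed with at least a 1.5-fold difference in any comparison; points are libraries, and lines with bars are mean ± SD of the 3 libraries of a group. Atf4, Ddit4 and Slc1a4 are highest in OE_CM, Atf5 and Slc6a9 are lowest in TGF_VEC_CM, and Fgf21 lies at or below 2.22 CPM throughout.

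Medium of adipocytes with the microRNA inhibited, given with TGF-beta1, went with higher messenger RNA of 18 of the 33 genes tested and lower messenger RNA of 5. In TGF_KD_CM against TGF_VEC_CM, 23 of the 33 genes passed, against 43.3% of all genes tested. Among all genes tested 23% were higher and 20.2% lower. The median log2 fold change was 0.14 over the 33 genes and 0.00 over all genes. A 1.5-fold difference with a pass was reached by 4 genes, and by 8.01% of all genes tested.

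Here 8 of the 12 stress regulators rose and 1 fell. Atf4 had 463, 476 and 488 CPM in TGF_KD_CM, against 423, 393 and 399 CPM in TGF_VEC_CM. The groups did not overlap, and Atf4 rose by 0.23 ± 0.03 on the log2 scale (SE; adjusted p = 7.12e-12, edgeR). The largest change was in Atf5, which had 155, 165 and 169 CPM in TGF_KD_CM, against 77.2, 70.0 and 75.0 CPM in TGF_VEC_CM. Every TGF_KD_CM library held about double the level of any TGF_VEC_CM library, and the rise was 2.20-fold (log2 fold change 1.13 ± 0.03, adjusted p = 1.45e-35 in edgeR).

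Ddit3 had 37, 38.1 and 40.1 CPM in TGF_KD_CM, against 24.9, 28.4 and 25.6 CPM in TGF_VEC_CM, and rose by 0.54 on the log2 scale with no overlap. Of the genes overlapping them, Mars1 had a log2 fold change of -0.14, Mbd6 of 0.24 and Nup62 of -0.04. Chac1 had 11.2, 9.61 and 10.6 CPM in TGF_KD_CM, against 8.35, 6.68 and 7.30 CPM in TGF_VEC_CM, which did not overlap. The phosphatase subunit gene Ppp1r15a had 40.7, 39.4 and 37.6 CPM in TGF_KD_CM, against 35.5, 32.8 and 32.9 CPM in TGF_VEC_CM, also without overlap. Cebpb (log2 fold change 0.27), Trib3 (0.21) and Nupr1 (0.16) rose as well. Ddit4 fell: it had 28.7, 34.2 and 35.3 CPM in TGF_KD_CM, against 36.4, 38.4 and 40.3 CPM in TGF_VEC_CM, a log2 fold change of -0.23 with no overlap. Sesn2 (0.16 ± 0.07), Cebpg (0.09 ± 0.05) and Eif4ebp1 (-0.04 ± 0.03) did not pass.

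The synthesis enzymes divided, with 4 higher, 3 lower and 2 that did not pass, and a median log2 fold change of 0.01. Cth had 30.9, 30.3 and 32.6 CPM in TGF_KD_CM, against 20.5, 19.97 and 20.4 CPM in TGF_VEC_CM. No library of one group came near the other, and Cth rose 1.54-fold. Pck2 averaged 167 ± 1.04 CPM in TGF_KD_CM and 119 ± 1.99 CPM in TGF_VEC_CM (SD, n = 3 each), a log2 fold change of 0.49, and Psat1 (0.09) and Psph (0.15) rose by less. The call on Psph was lost without TGF_VEC_CM replicate 2 (log2 fold change 0.09, adjusted p = 0.103 in edgeR) and with limma on log2(FPKM + 1) and on log2(FPKM + 0.1) (adjusted p = 0.0593 and 0.0596). The 3 that fell were Pycr1, Aldh18a1 and Asns. Pycr1, which makes proline in mitochondria, had 23.2, 21.4 and 19.9 CPM in TGF_KD_CM, against 27.5, 26.2 and 27.7 CPM in TGF_VEC_CM, and fell by 0.34 on the log2 scale with no overlap. Aldh18a1 fell by 0.19 and Asns by 0.10 on the log2 scale. Phgdh (0.01 ± 0.03) and Gpt2 (-0.06 ± 0.05) did not pass.

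The 3 one-carbon enzymes rose in this comparison as well. Mthfd1l (chr10:3972892-4167081) had 129, 133 and 129 CPM in TGF_KD_CM, against 96.0, 95.3 and 95.9 CPM in TGF_VEC_CM, a 1.36-fold difference with no overlap. Shmt2 and Mthfd2 rose by 0.13 and 0.14 on the log2 scale. Of the 7 transporters 2 rose and 5 did not pass. Slc6a9 (chr4:117835258-117869305) had 33.8, 30.5 and 33.4 CPM in TGF_KD_CM, against 18.3, 16.3 and 18.3 CPM in TGF_VEC_CM, with every TGF_KD_CM library far above. It rose 1.85-fold (log2 fold change 0.89 ± 0.07, adjusted p = 2.91e-18 in edgeR), while the overlapping Ccdc24 had a log2 fold change of -0.34. Slc7a11 averaged 19.98 ± 0.66 CPM in TGF_KD_CM and 13.8 ± 1.23 CPM in TGF_VEC_CM and rose by 0.54. The log2 fold changes of Slc7a5, Slc3a2, Slc7a1, Slc1a4 and Slc1a5 lay between -0.03 and 0.09. Slc1a4 had 65.4, 63.2 and 64.6 CPM in TGF_KD_CM, against 60.9, 59.9 and 61.1 CPM in TGF_VEC_CM, which did not overlap, but it did not pass (adjusted p = 0.085 in edgeR).

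Vldlr rose by 0.40 on the log2 scale, with a mean of 114 ± 5.09 CPM in TGF_KD_CM and 86.4 ± 2.05 CPM in TGF_VEC_CM. Fgf21 had 27, 35 and 38 counts in TGF_KD_CM, against 79, 44 and 51 counts in TGF_VEC_CM, with no overlap. Summed counts were 100 in TGF_KD_CM and 174 in TGF_VEC_CM, a scaled ratio of 0.566 with a 95% counting interval of 0.438 to 0.728. Fgf21 passed in edgeR as lower (log2 fold change -0.82, adjusted p = 0.0375). Without TGF_VEC_CM replicate 1, the highest library, the log2 fold change was -0.53 and the adjusted p 0.3, and the call was also lost without TGF_KD_CM replicate 1, 2 or 3 (adjusted p 0.135, 0.0668 and 0.05).

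**Figure D4:**
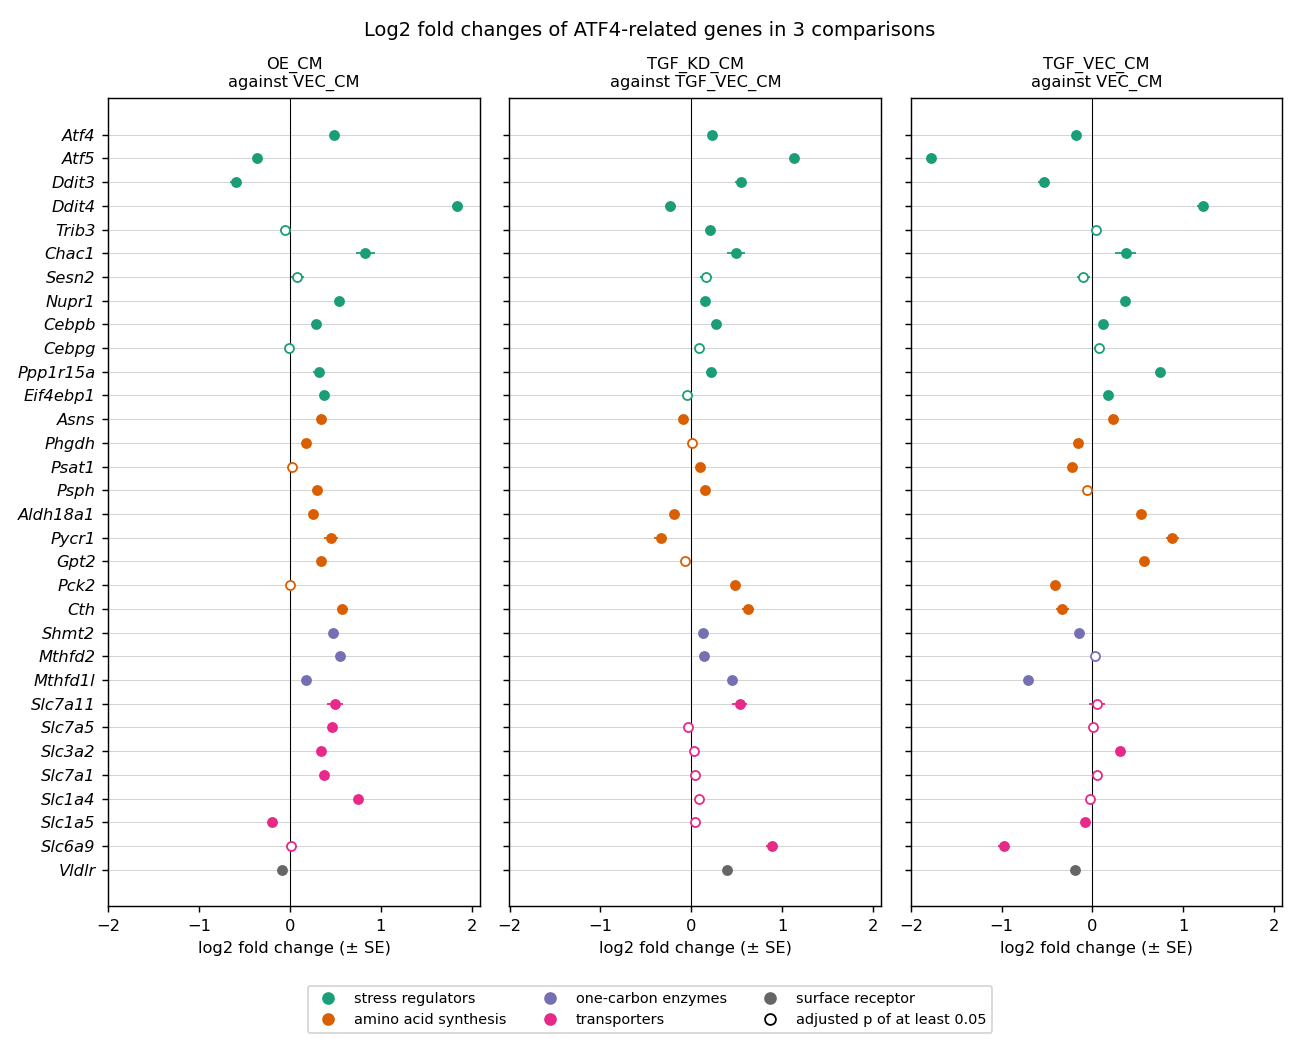
Log2 fold changes with SE bars for 32 genes in the 3 comparisons, coloured by role; filled points passed the threshold and open points did not. Fgf21 and the untested Stc2 are left out. In OE_CM against VEC_CM most points lie right of 0 with Ddit4 farthest at 1.84, in TGF_KD_CM against TGF_VEC_CM Atf5 is farthest at 1.13, and in TGF_VEC_CM against VEC_CM points fall on either side, from Atf5 at -1.78 to Ddit4 at 1.21.

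With vector medium in both groups, TGF-beta1 (and the part of the study, which cannot be told apart from it) went with changes in both directions. In TGF_VEC_CM against VEC_CM 24 of the 33 genes passed, against 58.3% of all genes tested. They split into 12 higher and 12 lower, where 28.9% of all genes were higher and 29.4% lower. The median log2 fold change was 0.03 over the 33 genes and 0.00 over all genes. A pass with at least a 1.5-fold difference was found for 7 genes and for 16.7% of all genes tested. This comparison shares TGF_VEC_CM with the previous one and VEC_CM with the first, so its values are not independent of theirs.

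Of the stress regulators, 6 rose, 3 fell and 3 did not pass. Atf4, with the TGF_VEC_CM and VEC_CM values given above, fell by 0.18 ± 0.03 on the log2 scale, and the groups did not overlap. The fall of Atf5 was 3.44-fold, from the same library values (log2 fold change -1.78 ± 0.03, adjusted p = 1.28e-45 in edgeR). Nup62, which overlaps Atf5, had a log2 fold change of -0.03. Ddit3 fell by 0.54, whereas Ddit4 rose 2.32-fold. Ppp1r15a (chr7:45522917-45526268) had 35.5, 32.8 and 32.9 CPM in TGF_VEC_CM, against 21.0, 20.02 and 19.4 CPM in VEC_CM, a 1.68-fold rise with no overlap. Chac1 rose by 0.36 on the log2 scale, Nupr1 by 0.36, Eif4ebp1 by 0.17 and Cebpb by 0.11. Trib3 (0.04 ± 0.05), Sesn2 (-0.10 ± 0.07) and Cebpg (0.07 ± 0.05) did not pass.

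Of the 9 synthesis enzymes, 4 rose, 4 fell and 1 did not pass. Pycr1 (chr11:120638998-120643748) had 27.5, 26.2 and 27.7 CPM in TGF_VEC_CM, against 15.5, 12.9 and 15.8 CPM in VEC_CM. The groups were widely apart, and the rise was 1.84-fold (log2 fold change 0.88 ± 0.07, adjusted p = 5.98e-17 in edgeR). Aldh18a1 averaged 327 ± 10.5 CPM in TGF_VEC_CM and 225 ± 2.61 CPM in VEC_CM (SD, n = 3 each), a log2 fold change of 0.54. Gpt2 rose by 0.57 and Asns by 0.23. Phgdh fell by 0.16 and Psat1 by 0.23, while Psph (-0.06 ± 0.04) did not pass. Pck2 fell by 0.42 and Cth by 0.33 on the log2 scale.

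Of the one-carbon enzymes, Mthfd1l fell 1.64-fold, Shmt2 fell by 0.14 on the log2 scale, and Mthfd2 did not pass (0.03 ± 0.03). Among the transporters Slc3a2 rose by 0.30. Slc6a9 had 18.3, 16.3 and 18.3 CPM in TGF_VEC_CM, against 37.8, 32.2 and 34.2 CPM in VEC_CM, a 1.97-fold fall with no overlap, while the overlapping Ccdc24 had a log2 fold change of 0.80. Slc1a5 passed as lower with a log2 fold change of -0.09, a call that was lost with DESeq2 (adjusted p = 0.0723). It was lost in edgeR with RLE factors (adjusted p = 0.0669), upper quartile factors (0.152) and a filter of at least 1 CPM in 3 libraries (0.0978). The call was also lost with limma on log2(FPKM + 1) and on log2(FPKM + 0.1) (adjusted p = 0.3 in each). The same held in edgeR without any of TGF_VEC_CM replicates 1, 2 and 3 or VEC_CM replicates 2 and 3 (adjusted p from 0.098 to 0.221). Slc7a11, Slc7a5, Slc7a1 and Slc1a4 did not pass, with log2 fold changes between -0.02 and 0.05. Vldlr fell by 0.19. Fgf21 had 79, 44 and 51 counts in TGF_VEC_CM libraries, against 1, 2 and 1 in VEC_CM libraries. Summed, these gave a scaled ratio of 43.7 with a 95% counting interval of 16.8 to 162.

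The effects of the overexpression medium and of the inhibition medium share no library, and the difference between them was tested as an interaction in the same fit. It asks whether OE_CM minus VEC_CM differed from TGF_KD_CM minus TGF_VEC_CM; the presence of TGF-beta1 differs between the 2 effects as well. For 25 of the 33 genes the difference passed, against 52.5% of all genes tested. It was positive for 17 genes, where 25.6% of all genes were, and negative for 8, where 26.8% of all genes were. Higher in OE_CM against VEC_CM and also higher in TGF_KD_CM against TGF_VEC_CM were 11 of the 33 genes (33.3%), and 5.56% of all genes tested. These were Atf4, Chac1, Nupr1, Cebpb, Ppp1r15a, Psph, Cth, Shmt2, Mthfd2, Mthfd1l and Slc7a11. Passing in opposite directions were 8 genes (24.2%), and 18.2% of all genes tested. Of the 8, Vldlr and Fgf21 rest on calls that other settings lost, as given above; without these 2 calls, 6 of the 33 genes (18.2%) remain, the same share as of all genes. None of the 33 passed as lower in both comparisons, as 4.64% of all genes did.

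Of the 8 genes with opposite directions, Ddit4, Asns, Aldh18a1, Pycr1 and Fgf21 were higher with overexpression medium and lower with inhibition medium. Atf5, Ddit3 and Vldlr were lower with overexpression medium and higher with inhibition medium. The difference between the effects was 2.07 ± 0.09 on the log2 scale for Ddit4, -1.50 ± 0.05 for Atf5 and -1.14 ± 0.08 for Ddit3 (adjusted p = 2.67e-29, 4.04e-35 and 2.26e-19 in edgeR). For the proline enzymes it was 0.78 ± 0.10 in Pycr1 and 0.44 ± 0.04 in Aldh18a1. Atf4 itself was higher in each comparison, and its effects differed by 0.25 ± 0.04. For Slc7a11 (-0.04 ± 0.12), Cth (-0.05 ± 0.09), Cebpb (0.02 ± 0.05), Ppp1r15a (0.10 ± 0.08) and Chac1 (0.34 ± 0.15, adjusted p = 0.0531 in edgeR) the difference did not pass, which does not show that the effects were equal.

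**Figure D5:**
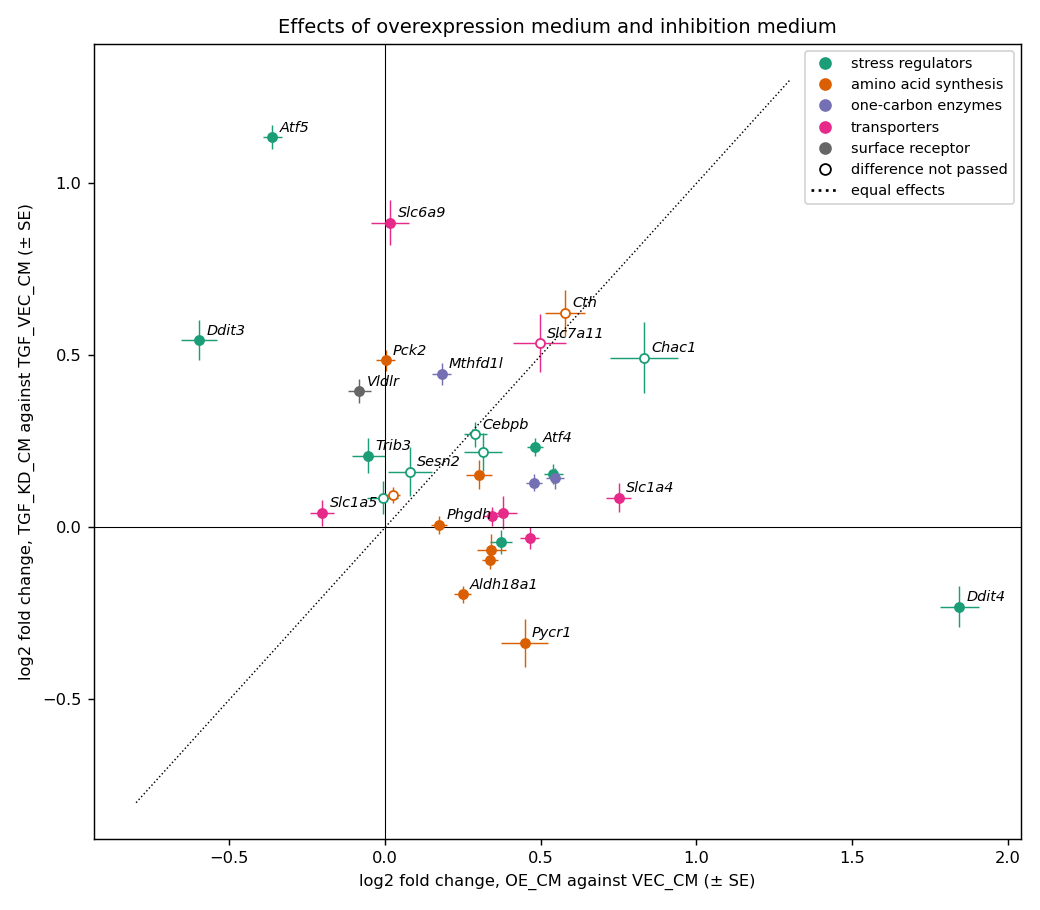
Log2 fold change in TGF_KD_CM against TGF_VEC_CM (vertical) by that in OE_CM against VEC_CM (horizontal), with SE bars, for 32 genes coloured by role; the dotted line marks equal effects, and filled points are genes whose difference between the effects passed, with crowded points unnamed. Ddit4 (1.84 across, -0.23 up) is far right of the line, while Atf5 (-0.36 across, 1.13 up), Slc6a9 (0.02 across, 0.89 up) and Ddit3 (-0.60 across, 0.54 up) are above it; Slc7a11 and Cth are near it.

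Across the 4 groups, the highest mean CPM was in OE_CM for 18 of the 33 genes (54.5%, against 31.5% of all genes tested), in TGF_KD_CM for 9 (27.3%, against 16.8%), in TGF_VEC_CM for 4 (12.1%, against 28.1%) and in VEC_CM for 2 (6.06%, against 23.6%). The lowest mean was in OE_CM for 4 genes (12.1%, against 32.6% of all genes tested), in TGF_KD_CM for 1 (3.03%, against 15.8%), in TGF_VEC_CM for 13 (39.4%, against 28.7%) and in VEC_CM for 15 (45.5%, against 22.9%). These ranks take no account of spread, and some means were nearly equal. Slc6a9 had 35.2 CPM in OE_CM and 34.7 in VEC_CM, and Sesn2 23.3 in OE_CM and 23.0 in TGF_KD_CM. Chac1 had 10.5 CPM in TGF_KD_CM and 10.3 in OE_CM. Genes with and without the element letters in their promoter were set side by side in each comparison. In OE_CM against VEC_CM, 7 of the 10 genes holding the letters were higher, 1 was lower and 2 did not pass, with a median log2 fold change of 0.47. Of the 19 tested genes with a promoter and no match, 13 were higher, 2 were lower and 4 did not pass, with a median of 0.29. Of the 4 genes with no promoter found, 3 were higher and 1 lower, with a median of 0.42. Among all genes tested, 28.4% were higher and 25.7% lower. In TGF_KD_CM against TGF_VEC_CM, 6 genes with the letters were higher and 3 lower, and 11 without them were higher and 2 lower. The medians were 0.18 with the letters and 0.14 without, and 23% of all genes were higher and 20.2% lower. In TGF_VEC_CM against VEC_CM, 5 with the letters were higher and 2 lower, and 6 without them were higher and 8 lower. Here the medians were 0.14 with the letters and -0.06 without, and 28.9% of all genes were higher and 29.4% lower. No test was made of these splits.

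Other genes of the pathway were counted on 6 further lists. The counts are to be read against the shares of all genes tested, which were 28.4% higher and 25.7% lower in OE_CM against VEC_CM, 23% and 20.2% in TGF_KD_CM against TGF_VEC_CM, and 28.9% and 29.4% in TGF_VEC_CM against VEC_CM. Cytosolic aminoacyl-tRNA synthetases, which load amino acids onto transfer RNA, were higher for 16 of 20 and lower for 1 in OE_CM against VEC_CM, with a median log2 fold change of 0.31. The 3 with the lowest p were Tars (0.45), Mars1 (0.43) and Gars (0.37). In TGF_KD_CM against TGF_VEC_CM 2 of these 20 were higher and 6 lower, and in TGF_VEC_CM against VEC_CM 11 were higher and 2 lower. The difference between the first 2 effects was positive for 17 of the 20 and negative for 2.

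Among 12 genes of the eIF2alpha kinases and the eIF2 machinery, 8 were higher and 1 lower in OE_CM against VEC_CM. Eif2b3, a subunit of the exchange factor of eIF2, had a log2 fold change of 0.60 there, and Eif2s1, eIF2alpha itself, of 0.41. The lower gene was Eif2ak2 (-0.32), the kinase activated by double-stranded RNA and itself induced by interferon. In TGF_KD_CM against TGF_VEC_CM 4 were higher and 4 lower, and Eif2ak2 had the lowest p: it averaged 333 ± 12.7 CPM in TGF_KD_CM and 135 ± 5.03 CPM in TGF_VEC_CM (SD, n = 3 each), a log2 fold change of 1.30. In TGF_VEC_CM against VEC_CM 4 were higher and 3 lower.

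Of 14 other amino acid enzymes tested, 9 were higher and 3 lower in OE_CM against VEC_CM, 2 higher and 8 lower in TGF_KD_CM against TGF_VEC_CM, and 8 higher and 6 lower in TGF_VEC_CM against VEC_CM. Odc1, ornithine decarboxylase of polyamine synthesis, rose by 0.64 in OE_CM and fell by 0.39 in TGF_KD_CM. Bcat1, the cytosolic branched-chain aminotransferase, rose by 0.60 in OE_CM. Gpt, whose p was the next lowest on this list there, fell by 1.03. Of 15 other transporters tested, 5 were higher and 5 lower in OE_CM, 7 higher and 1 lower in TGF_KD_CM, and 7 higher and 3 lower in TGF_VEC_CM, in the same 3 comparisons. In OE_CM these were 33.3% in each direction, close to the shares of all genes. Slc38a4, a neutral amino acid carrier, had log2 fold changes of -0.96 in OE_CM against VEC_CM, 0.68 in TGF_KD_CM against TGF_VEC_CM and -0.80 in TGF_VEC_CM against VEC_CM. Slc6a6 and Slc43a2 rose in OE_CM against VEC_CM, by 0.52 and 1.03.

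A list of 10 other folate, serine and glycine enzymes held cytosolic ones and the mitochondrial Aldh1l2, Gldc and Amt. Of the 10, 3 were higher and 3 lower in OE_CM against VEC_CM, 2 higher and 4 lower in TGF_KD_CM against TGF_VEC_CM, and 4 higher and 3 lower in TGF_VEC_CM against VEC_CM. In OE_CM these were 30% in each direction, also close to the shares of all genes. Aldh1l1, the cytosolic formyltetrahydrofolate dehydrogenase, fell by 1.31 on the log2 scale in OE_CM, and Mthfd1, the cytosolic counterpart of the mitochondrial folate enzymes, rose by 0.33. Among 12 other stress-responsive genes, 4 were higher and 2 lower in OE_CM, 3 higher and 5 lower in TGF_KD_CM, and 8 higher and 2 lower in TGF_VEC_CM, in the same comparisons. Gadd45a, a growth arrest gene, rose by 1.36 in OE_CM and 0.63 in TGF_KD_CM. Gdf15, a secreted stress cytokine, had a log2 fold change of -0.74 in TGF_KD_CM against TGF_VEC_CM. Sqstm1 had the lowest p of this list there, with a log2 fold change of 0.62.

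Over the 12 libraries, the 5 genes whose log CPM was most like that of Atf4 were Sh3pxd2a, Tsr2, Pde2a, Ptbp3 and Trp53. Pearson's r was between 0.987 and 0.993 and Spearman's rho between 0.874 and 0.965. The libraries fall into 4 groups, so these values mainly describe the order of the group means and carry no p-value.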

How the data were processed

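Per the labels, libraries were made from fibroblast RNA with a SMARTER mRNA kit. The deposited count table holds whole-number counts per gene with no normalization, and the deposited FPKM table holds the authors' values per length and depth. Each FPKM equalled the count over the column total and 1 length per gene (24619 genes checked, tolerance 0.01%). The submitters' processing notes name the builds GRCm38 and mm10. Which aligner, counter, strand setting and annotation were used is not given in the sources used here. Every measurement column was matched to 1 sample by its title.

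The tests were run in edgeR 4.0.16 (R 4.3.3): filterByExpr (14400 genes kept, 10219 removed), TMM factors (0.947 to 1.04), 1 robust quasi-likelihood fit of all 12 libraries with a mean per group, two-sided tests, and Benjamini-Hochberg adjustment over all genes tested at 0.05. The common biological coefficient of variation was 0.0341. The printed CPM include the TMM factors. The fit was tested on simulated data for OE_CM against VEC_CM. It recovered 75% of simulated 1.25-fold changes and 87.8% of 1.5-fold changes, with 7 false calls among 14105 genes tested. The simulation used 1 common coefficient of variation and changed few genes, so recovery in these data may differ. No replicate pair agreed within sampling noise (chi-square per gene 2.96 to 4.43).

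The genes and lists were chosen with earlier results of these data known. Values in every library are given for Atf4 and for genes that passed with at least a 1.5-fold change in any comparison of 2 groups. At most 3 genes of each further list were named per comparison by lowest p, and 5 genes by likeness to Atf4. A related gene so named may also be given in another comparison, chosen after its values were seen. Promoters come from a RefSeq table of GRCm38.p6. Alternatives were RLE and upper quartile factors, no filter, at least 1 CPM in 3 libraries, DESeq2 1.42.0, limma 3.58.1 on log2(FPKM + 1) and log2(FPKM + 0.1), fits of only the groups compared, a replicate block, and leaving out each library. Intervals and floors cover counting error only.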

Additional observations from a re-analysis of the deposited data

Results flagged for a closer look

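For 25 of the 33 genes tested, the effect of OE_CM against VEC_CM differed from that of TGF_KD_CM against TGF_VEC_CM by the test of the difference itself (edgeR, adjusted over all genes tested), and these are listed for that reason. The values are the first effect minus the second, on the log2 scale. Among the stress regulators it was 0.25 for Atf4, -1.50 for Atf5, -1.14 for Ddit3, 2.07 for Ddit4, -0.26 for Trib3, 0.39 for Nupr1 and 0.41 for Eif4ebp1.

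Among the synthesis enzymes the difference was 0.43 for Asns, 0.17 for Phgdh, 0.15 for Psph, 0.44 for Aldh18a1, 0.78 for Pycr1, 0.41 for Gpt2 and -0.48 for Pck2. It was 0.35 for Shmt2, 0.40 for Mthfd2 and -0.27 for Mthfd1l among the one-carbon enzymes. For the transporters it was 0.49 for Slc7a5, 0.31 for Slc3a2, 0.33 for Slc7a1, 0.66 for Slc1a4, -0.24 for Slc1a5 and -0.87 for Slc6a9. Vldlr had a difference of -0.48. The fitted difference of Fgf21 was 3.96, a value that depends on the prior count because VEC_CM libraries held 1 or 2 counts. The call for Psph was lost in 10 of the 20 other settings run for it. TGF-beta1 was named for one of the 2 effects only, so the medium and TGF-beta1 cannot be told apart in these differences.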

How the results depend on the processing

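The counts of genes passing changed little. In OE_CM against VEC_CM the total was 26 to 30 under the other settings and 26 to 27 when single libraries were left out, against 27. In TGF_KD_CM against TGF_VEC_CM these ranges were 22 to 24 and 22 to 23, against 23, and in TGF_VEC_CM against VEC_CM 23 to 24 and 23 to 27, against 24. For the difference between effects they were 25 to 26 and 24 to 26, against 25. Genes lower in OE_CM numbered 7 with upper quartile factors, against 4. Psat1 in OE_CM against VEC_CM was then -0.063 (adjusted p = 0.0154, edgeR) and Pck2 -0.086 (adjusted p = 0.0113), where neither passed and each was above 0 with TMM factors. Pck2 was also lower with limma on log2(FPKM + 1) (-0.073, adjusted p = 0.0488) and on log2(FPKM + 0.1) (-0.075, adjusted p = 0.0475). The cause was not tested. The limma fits called 2778 and 2812 genes higher and 4477 and 4588 lower of all genes in this comparison.

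Over 21 settings, 2144 values were recomputed. Of these, 2081 kept their side of the threshold with no reversed call, 36 no longer passed, 23 came to pass and 4 reversed; among the 2081, 54 values of 14 genes changed sign while passing in neither fit. In OE_CM against VEC_CM, TGF_KD_CM against TGF_VEC_CM and TGF_VEC_CM against VEC_CM, same-numbered replicates deviated together with correlations of 0.000298 to 0.0436. Between OE_CM and TGF_VEC_CM, replicates numbered 2 had a correlation of -0.0372. In OE_CM against VEC_CM the same-numbered values were 0.0193 to 0.0436, above those of differently numbered replicates (-0.0394 to 0.000496). The ranges overlapped in TGF_KD_CM against TGF_VEC_CM and in TGF_VEC_CM against VEC_CM. These values are small and do not settle whether the numbers pair the samples. With the replicate number as a block, 27 (23 higher, 4 lower), 23 (19 and 4), 24 (12 and 12) and 26 (18 and 8) genes passed in the 4 comparisons in the order above. Fgf21 in TGF_KD_CM against TGF_VEC_CM then missed the threshold (adjusted p = 0.0501).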
